A study of Mus musculus with 35 samples.

Results

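Vip interneurons of the mouse hippocampus were examined as 293 nuclei among 122747 barcodes with 1000 or more detected genes, from 14 libraries of single nuclei. A nucleus was counted when it held 4 or more unique molecular identifiers (UMIs, each standing for 1 captured RNA molecule) of Gad1 and Gad2 together, the enzymes that make the transmitter GABA, and 2 or more of Vip. It could hold at most 2 UMIs of Sst, a marker of another interneuron class, at most 2 of Slc17a7, a marker of excitatory neurons, and at most 2 of Mog and Mag together, which mark oligodendrocytes. The nuclei came from frozen hippocampus of C57BL/6 mice aged 9 months. There were 3 WT libraries, 3 PS19, 4 CLEAR and 4 CLEAR_PS19, with 1 female in each genotype. PS19 mice express a mutant human tau from the Prnp promoter (the prion protein gene), which is active in many cell types besides neurons. In CLEAR mice the sequence that TFEB, a transcription factor of lysosomal genes, recognizes in Atp6v1h is mutated, as far as is known of the design. The product of Atp6v1h belongs to the V-ATPase, the proton pump that acidifies lysosomes. CLEAR_PS19 mice carry both. Bulk RNA-seq of whole hippocampus from WT and PS19 mice, 6 and 6 at 4 months and 5 and 4 at 9 months, served as an assay that the choice of nuclei did not use. Nothing in the labels says whether a library is 1 animal or a pool, so the p-values measure the spread between libraries, part of which may be technical.

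Vip interneurons arise from the caudal ganglionic eminence (CGE) and release GABA together with vasoactive intestinal peptide, a ligand of receptors that raise cyclic AMP. Hippocampal Vip cells are usually divided into an interneuron-selective kind, which often contains calretinin (Calb2) and inhibits other inhibitory cells, and a basket kind, which contains cholecystokinin (Cck) and inhibits the cell bodies of pyramidal neurons. Through the first kind they release pyramidal cells from inhibition. Vip itself belongs to the genes that cyclic AMP and neuronal activity can switch on. Npas4 and Egr1 are transcription factors of the same kind, and are used as markers of recent neuronal activity.

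The promoters of 3 genes are shown because the results turn on them: Vip defines the cells, Npas4 was called lower with the tau transgene, and the promoter of Prnp drives that transgene. Each stretch runs from 250 bases before to 50 after the start of transcription in RefSeq (GRCm38.p6), 5′ to 3′ on the strand of the gene. Capitals mark TGACG or its reverse complement CGTCA, the core of the cyclic AMP response element. That core was found in 6837 of 32851 mouse promoters of this length (20.8%), on either strand.
Vip, chr10:5638968-5639267, plus strand: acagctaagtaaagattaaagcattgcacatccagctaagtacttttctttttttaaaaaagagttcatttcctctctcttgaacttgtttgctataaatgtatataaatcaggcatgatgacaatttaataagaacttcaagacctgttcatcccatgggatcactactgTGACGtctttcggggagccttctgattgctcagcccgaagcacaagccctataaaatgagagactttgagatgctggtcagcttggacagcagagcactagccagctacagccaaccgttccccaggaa
Npas4, chr19:4989922-4990221, minus strand: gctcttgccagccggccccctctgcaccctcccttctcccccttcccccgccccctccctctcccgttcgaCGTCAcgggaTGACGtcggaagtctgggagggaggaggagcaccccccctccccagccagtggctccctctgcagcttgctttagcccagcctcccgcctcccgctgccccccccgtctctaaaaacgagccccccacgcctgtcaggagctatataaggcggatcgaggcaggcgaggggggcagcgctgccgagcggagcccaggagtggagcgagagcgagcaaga
Prnp, chr2:131909678-131909977, plus strand: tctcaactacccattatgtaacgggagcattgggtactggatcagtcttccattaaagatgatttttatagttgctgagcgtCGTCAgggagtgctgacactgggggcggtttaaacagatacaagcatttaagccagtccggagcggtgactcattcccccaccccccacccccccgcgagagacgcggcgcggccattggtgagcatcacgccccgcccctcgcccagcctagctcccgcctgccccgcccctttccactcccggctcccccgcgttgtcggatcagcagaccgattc
The core stood once in the window of Vip, 2 times in that of Npas4 and once in that of Prnp. Among the other activity-induced genes described below that were searched it stood 4 times in Nr4a1, 4 times in Nr4a3, 2 times in Fos and once in Junb. Homer1 held it 3 times at 1 of its starts and not at the other. Egr1 was not searched. The windows of Unc5c (1 match) and Cdh18 (no match) were searched in the same way. A match of letters is a description and does not show that a factor binds there.

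The 293 nuclei held a median of 7 Vip UMIs (range 2 to 52) and 6 of Gad1 and Gad2 (range 4 to 24), at a median of 8747 UMIs and 3188 genes. No Sst UMI was present in 281 of them, no Slc17a7 UMI in 271 and no Mog or Mag UMI in 262. Libraries contributed 28, 18 and 15 nuclei in WT, 23, 24 and 13 for PS19, 11, 21, 13 and 19 for CLEAR, and 33, 31, 33 and 11 for CLEAR_PS19. The summed UMIs per library, on which all expression values rest, ran from 65556 to 384525. Pairs of libraries shared 10 to 70 cell barcodes, at most 0.629% of the smaller library, and no barcode of a Vip nucleus was shared. A doublet caller marked 22 of the 293.

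Inhibitory nuclei became fewer from 132 with 1 Vip UMI, just outside the rule, to 44, 32, 16 and 14 with 2, 3, 4 and 5, and numbered 30 with 6. The 76 nuclei with 2 or 3 Vip UMIs lay just inside the rule. Adarb2, an RNA-editing family gene typical of CGE-derived interneurons, was seen in 96.1% of the nuclei just inside and 71.2% of those just outside, against 99.0% of all 293. Prox1, a transcription factor that keeps the identity of CGE-derived cells, was seen in 68.4% and 36.4%, and in 77.5% of all. Npas1, another transcription factor of these cells, was seen in 67.1% and 37.9%, and in 70.0% of all. In the 4673 inhibitory nuclei with no Vip UMI that serve as the comparison below, these shares were 50.9% for Adarb2, 18.2% for Prox1 and 25.1% for Npas1. The minimum for Gad1 and Gad2 left out more: 306 barcodes held 5 or more Vip UMIs with fewer than 4 of Gad1 and Gad2, at a median of 5837.5 UMIs. Adarb2 was seen in 100% of these 306, Prox1 in 71.9% and Npas1 in 58.5%. Counted together with the 293 they give a wide set of 599 nuclei. The 293 made up between 26.8% (CLEAR replicate 1) and 71.8% (WT replicate 1) of that set, so the values of called genes are given for the wide set too, an alternative chosen after seeing the data. The upper limits on Sst, Slc17a7 and Mog with Mag removed 23 barcodes, of which 21 were marked as doublets.

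Libraries were also grouped into sets, 1 of which goes with the CLEAR mutation. They differed in depth, which was lower on average with the tau transgene. The 14 libraries were grouped by correlations among their summed excitatory nuclei, with the number of sets fixed at 3. These were 6 libraries of males of all genotypes, the 4 libraries of females, and a last set. That last set held CLEAR replicates 1 and 2 with CLEAR_PS19 replicates 1 and 2. The labels name no batch. The last set holds CLEAR and CLEAR_PS19 libraries alone, so the averaged effect of the CLEAR mutation on the genes and shares named in Vip nuclei is given within or without that set too. Median UMIs per barcode were 6303 to 9188.5 in the 7 libraries without the tau transgene and 4596 to 6864 in the 7 with it.

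Compared with the other inhibitory nuclei of the same libraries, Vip nuclei were higher in many genes typical of CGE-derived, peptide-releasing interneurons. The comparison set was 4673 nuclei with 4 or more Gad UMIs, no Vip UMI and at most 2 of Sst. Of 10401 genes tested, 2386 (22.9%) were called at an adjusted p under 0.05 (edgeR's quasi-likelihood test, library as a block, Benjamini-Hochberg), 1076 higher in Vip nuclei (10.3%) and 1310 lower (12.6%). The genes of the rule (Gad1, Gad2, Vip, Sst, Slc17a7, Mog, Mag) are left out of these results. Values are CPM (UMI counts scaled to 1e6 per library) of the summed nuclei, given as mean ± SD over 14 libraries. They were scaled over both kinds of nuclei, apart from the scaling used between genotypes below, so levels differ somewhat between these comparisons.

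Of 17 genes fixed as marks of CGE and Vip identity, 13 passed the filter on low counts. Of these, 12 were called higher and 1 lower, with a median log2 difference of 1.86 beside -0.03 for all genes. Genes could pass that filter through the kind of nuclei where they stood high. The counts and medians of lists in this comparison are therefore a description and support no direction for a list. Adarb2 stood at 16520 ± 2921 CPM against 4718 ± 936 (log2 difference 1.81). Prox1 stood at 250.4 ± 46.5 against 32.1 ± 7.89 (2.97), higher in all 14 libraries. Synpr, a synaptic vesicle protein, stood at 1717 ± 366 against 344.0 ± 71.5 (2.33). In each of these 3 genes the lowest library of Vip nuclei lay above the highest of the others. Igf1, a growth factor, was higher by 1.67 and Npas1 by 1.62. Receptors on the list were higher as well: Npy2r for neuropeptide Y by 3.17, Grpr for gastrin-releasing peptide by 3.61, Htr2c by 1.86 and Htr3a by 1.92, both for serotonin. Tac2, which encodes neurokinin B, was higher by 4.06. The exception was Mybpc1, lower by 1.16 on the log2 scale at 4.35 ± 5.57 CPM against 10.1 ± 3.75, and at 0.20 in the 306 low-Gad barcodes.

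Calb2 and Penk had the largest increases among called genes with a mean of 20 or more CPM in Vip nuclei. Calb2, which encodes the calcium buffer calretinin, stood at 36.7 ± 13.2 CPM against 1.35 ± 0.878 (log2 difference 4.66). Penk, the precursor of enkephalins, stood at 71.2 ± 36.1 against 2.82 ± 1.77 (4.65). The other genes among the 12 largest increases included Sema5b (4.55), a guidance protein, Tshr (4.51), the thyrotropin receptor, Fbln2 (4.10), a matrix protein, and Cbln2 (3.81), a synapse organizer. Prox1os, Prox1's antisense neighbour (3.5), and A830012C17Rik (4.19), which overlaps Penk, cannot be separated from their neighbours without knowing how strand was counted. The machinery that makes and stores peptides followed: of 17 genes, 10 were called higher and 2 lower. The convertase Pcsk1 stood at 75.7 ± 38.7 CPM against 20.1 ± 6.85 (1.87), Pcsk2 was higher by 1.01 and the granin Scg2 by 0.72. The 2 lower genes were Syt7 (-0.84) and Cadps (-0.46), which act in vesicle release.

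Receptors for modulatory transmitters were called higher for 10 and lower for 5 of 18 tested. Besides those named above, Adra1b, an adrenergic receptor, was higher by 2.99, Npy1r by 2.54, the muscarinic receptor Chrm3 by 1.14 and the cannabinoid receptor Cnr1 by 1.10. The opioid receptors Oprd1 (-2.53) and Oprm1 (-0.99), the muscarinic receptor Chrm2 (-2.02), Grm5 (-1.21) and Adra1a (-0.70) were lower. Genes of GABA synthesis, transport and receptors were split, 5 higher, 9 lower and 14 not called of 28. Gabrd, the delta subunit of extrasynaptic GABA receptors, stood at 2.40 ± 4.75 CPM against 25.2 ± 4.32 (-3.59). The developmental regulators Dlx1 (1.22), Dlx6os1 (1.12) and Dlx2 (0.93) were higher.

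Of marks of other interneuron classes, 12 of 17 tested genes were called lower and 1 higher, at a median of -2.58. Lhx6, the transcription factor of cells from the medial ganglionic eminence, stood at 1.45 ± 2.89 CPM against 38.3 ± 8.01 (-4.40). Nxph1 stood at 138 ± 216 against 2179 ± 354 (-4.41), Pvalb was lower by 4.53 on the log2 scale, Lamp5 by 3.01 and Reln by 2.41. No library had Vip nuclei above the others for any of these 5 genes. The single gene called higher was Elfn1 (1.69), which organizes synapses onto Sst and some Vip cells. Among the 12 largest decreases, Gm34623 had no UMI in the 293 nuclei and 39.6 ± 15.5 CPM in the other nuclei.

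Of 22 listed activity-induced genes, 10 were too low to test against the other inhibitory nuclei, 7 were called higher in Vip nuclei, 0 lower, and 5 were not called. A gene could pass the filter through its level in Vip nuclei, so these counts are a description and support no direction for the list. Egr1 stood at 54.0 ± 46.8 CPM against 9.80 ± 5.75 (2.46), Npas4 at 42.8 ± 57.9 against 8.15 ± 3.46 (2.21) and Fos at 28.1 ± 23.7 against 6.43 ± 3.93 (2.19). Junb (1.79), Sik1 (1.20), Nr4a1 (1.05) and Fosl2 (1.04) were also higher. The spread over libraries was wide, and in Npas4 the SD passed the mean. These means pool all genotypes. Summed over the 22 genes, median CPM was 602 in Vip nuclei against 314 in the others without the tau transgene, and 343.5 against 261.3 with it. In PS19 replicate 3 alone the sum was lower in Vip nuclei (220.7 against 250.7). The V-ATPase list showed little: 1 of 18 tested genes was called, Atp6v0c (0.61), a subunit of the membrane ring. Atp6v1h stood at 91.1 ± 29.9 CPM in Vip nuclei and 91.3 ± 22.8 in the others (0.04). Of 41 lysosome and autophagy genes, 2 were higher (Cd63 by 1.20, Sqstm1 by 0.34) and 4 lower, among them Mitf (-2.07). Mapt, which encodes tau, was higher by 0.28. Among astrocyte markers Slc1a2 (1.24) and Gpc5 (0.96) were called higher too, and their part in these differences was not tested.

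**Figure D1:**
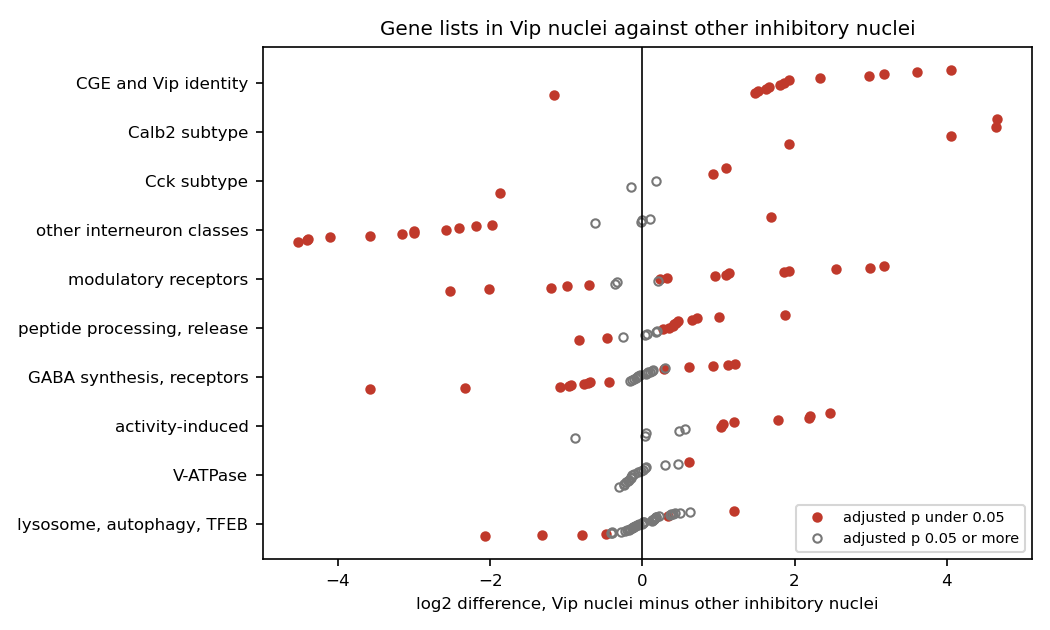
Each point is a gene of a fixed list, placed by its log2 difference between Vip nuclei and other inhibitory nuclei over 14 libraries; filled points have an adjusted p under 0.05 and the vertical spread within a list only separates points. Tested genes of the identity and Calb2 lists lie mostly to the right, marks of other interneuron classes mostly to the left, and V-ATPase genes close to 0. Genes could pass the filter on low counts through the kind of nuclei where they stood high.

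Calb2 was detected in 83 of the 293 Vip nuclei (28.3%), against 1.11% of the other inhibitory nuclei and 0.280% of 15728 oligodendrocyte nuclei, whose median depth was 2689 UMIs. Cck was detected in 105 (35.8%), against 29.2% of other inhibitory and 14.5% of oligodendrocyte nuclei, so single Cck UMIs do not separate a kind of cell here. Both were found in 21 nuclei, where the product of their frequencies gives 29.7. Penk was found in 50.6% of nuclei with Calb2 and 29.5% of those without. Among nuclei with Cck it was found in 21%, and among those without in 43.6%. Crh, corticotropin-releasing hormone, was found in 20% of nuclei with Cck and 11.2% of those without. Slc17a8, a glutamate transporter of some Cck basket cells, was found in 4 nuclei, and none of these held Calb2. These counts describe nuclei that share libraries and depth, and they were not tested.

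By library, the share of Vip nuclei with Calb2 was 17.9%, 38.9% and 20% in WT, 30.4%, 41.7% and 30.8% for PS19, 18.2%, 38.1%, 15.4% and 15.8% for CLEAR, and 30.3%, 25.8%, 36.4% and 18.2% for CLEAR_PS19. The groups overlapped. The mean was 7.26 percentage points higher with the tau transgene (exact permutation p = 0.163, adjusted 0.606 over 4 tests). With the CLEAR mutation the difference was -5.17 points (exact permutation p = 0.303, adjusted 0.606), and -7.37 within library sets. The share with Cck was 32.1%, 44.4% and 20% in WT, 26.1%, 45.8% and 38.5% for PS19, 27.3%, 28.6%, 61.5% and 26.3% for CLEAR, and 45.5%, 38.7%, 36.4% and 18.2% for CLEAR_PS19. It differed by 1.68 points with the transgene (exact permutation p = 0.786, adjusted 0.909) and by 0.806 with the mutation (exact permutation p = 0.909), or 2.42 within library sets. After thinning each nucleus to 5000 UMIs the Calb2 difference with the transgene was 9.87 points and that of Cck 0.262, again not past the threshold (adjusted exact permutation p = 0.486 and 0.946). Counting nuclei with 2 or more UMIs turned both differences, to -0.327 for Calb2 and -4.11 for Cck, and within library sets that of Cck was -0.604.

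Vip nuclei made up 0.279%, 0.251% and 0.194% of barcodes in WT, 0.224%, 0.259% and 0.177% for PS19, 0.135%, 0.258%, 0.173% and 0.225% for CLEAR, and 0.292%, 0.244%, 0.401% and 0.170% for CLEAR_PS19. The highest library was CLEAR_PS19 replicate 3 and the lowest CLEAR replicate 1, and every group overlapped every other. The exact 95% binomial intervals (Clopper-Pearson, counting error only) of these libraries were 0.276% to 0.563% and 0.0675% to 0.242%. No difference in abundance passed the threshold after adjustment. The mean was 0.0290 percentage points higher with the tau transgene (exact two-sided permutation within the CLEAR genotype, p = 0.427, adjusted 0.870 over 4 tests) and 0.00660 higher with the CLEAR mutation (exact permutation p = 0.870), or 0.0229 within library sets (p = 0.556, exact). The smallest p that these designs allow is 0.001429 and 0.0008163.

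As a share of inhibitory nuclei, of which there were 5899, Vip nuclei were 5.88%, 5.50% and 4.44% in WT, 4.32%, 4.67% and 3.81% for PS19, 3.13%, 5.33%, 3.57% and 4.56% for CLEAR, and 6.19%, 5.50%, 7.42% and 3.65% for CLEAR_PS19. The transgene difference was 0.267 points (exact permutation p = 0.673) and turned to -0.553 after thinning to 5000 UMIs (p = 0.443 by the same exact permutation). In the wide set the shares of barcodes were 0.389%, 0.502% and 0.310% in WT, 0.410%, 0.562% and 0.394% for PS19, 0.504%, 0.602%, 0.280% and 0.390% for CLEAR, and 0.699%, 0.615%, 0.608% and 0.402% for CLEAR_PS19. The transgene difference there was 0.0960 points (exact permutation p = 0.130). Permuted within the library sets it was 0.114 (p = 0.0347, adjusted 0.0694, exact), which did not pass the threshold after adjustment. Libraries with the same replicate number deviated together within each CLEAR genotype, so the shares were also compared within these 7 pairs, after their values had been seen. Libraries of a pair also share sex and library set, and what the number adds to these was not tested. In the wide set the library with the transgene was higher in 7 of 7 pairs, by a mean of 0.102 points. That gave the smallest p that 128 swaps allow (exact permutation p = 0.0156), and 0.0781 after adjustment over the 5 paired tests of shares. Under the rule it was higher in 3 of the 7 pairs (0.0361 points, exact permutation p = 0.484). The Calb2 share was higher in 6 of the 7 (7.05 points, exact permutation p = 0.109, adjusted 0.273).

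**Figure D2:**
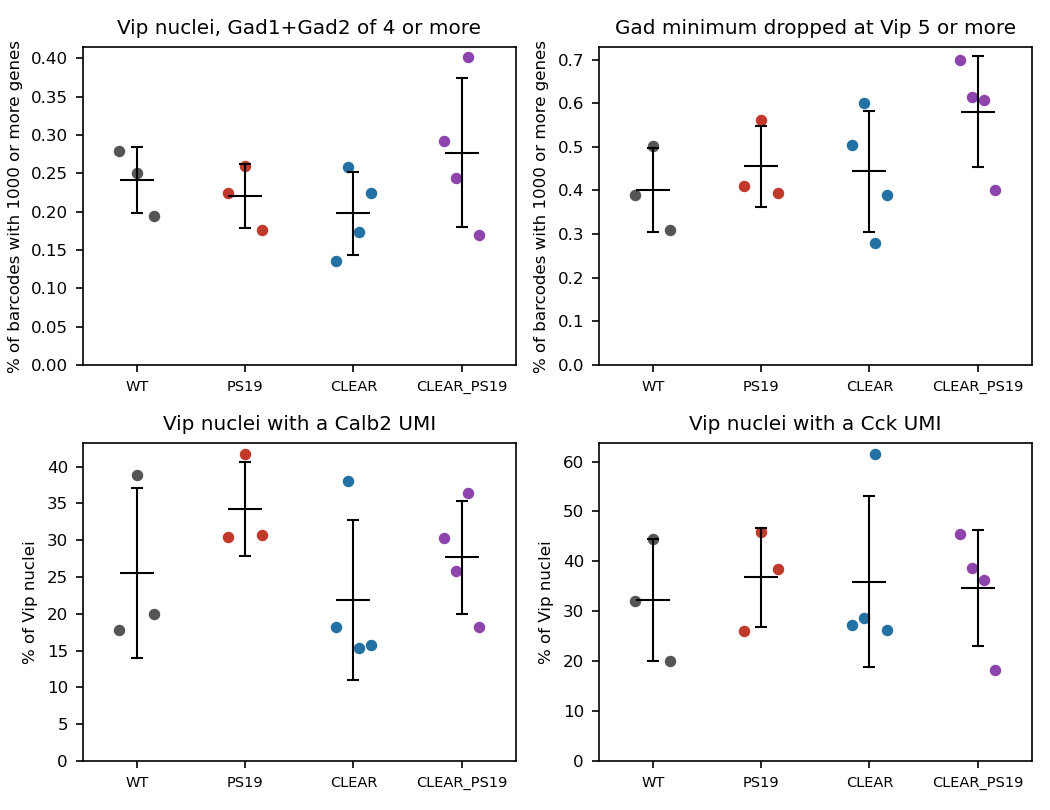
Points are libraries, horizontal bars group means and vertical bars SD, with axes from 0. The upper panels give Vip nuclei as a percent of barcodes under the rule and in the wide set, the lower panels the percent of Vip nuclei with a Calb2 or a Cck UMI; the genotypes overlap in all 4.

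The tau transgene was tested across 4814 genes in Vip nuclei, on UMIs summed per library, in a single fit over the 14 libraries with sex as a covariate. Averaged over the CLEAR genotypes, 3 genes were called (0.0623%): the long noncoding RNA Gm43049 and Prnp higher, and Npas4 lower. With the pairs of equal replicate number, WT with PS19 and CLEAR with CLEAR_PS19, as a block, a fit added after seeing the data, 5396 genes passed the filter and 9 were called (0.167%). These were the 3 above, Egr1 (-2.05, adjusted p = 0.00285), Unc5c (-1.09, adjusted p = 0.00586) and 1700016P03Rik lower, and Chrm2, Gm3143 and Unc5d higher, all by edgeR. Genes named without a call below were chosen by a fixed rule (the 5 smallest p per contrast, and list members) and are given as values. The human tau transcript was not measured as such, and mouse Mapt was not called in any contrast (0.17 for the transgene). PS19 and WT, CLEAR_PS19 and CLEAR give the separate contrasts, and the averaged contrast shares its libraries with them.

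Npas4 (chr19:4984355-4990316, minus strand), a transcription factor that calcium entry induces in neurons and that regulates inhibitory synapses, was lower in each of the 7 libraries with the transgene than in any of the 7 without. Its level was 80.3, 90.2 and 55.4 CPM in WT, 274, 65.2, 19.7 and 28.5 in CLEAR, 11.2, 5.14 and 9.59 in PS19, and 19.0, 0, 11.7 and 17.2 in CLEAR_PS19. CLEAR replicate 1 stood highest, and the nearest libraries of the 2 sides were CLEAR replicate 3 at 19.7 and CLEAR_PS19 replicate 1 at 19.0. Each of these 2 values is a few UMIs, and the gap between them is smaller than the value of 1 UMI in either library. A Npas4 UMI was present in 15 of 61 nuclei in WT, 20 of 64 in CLEAR, 4 of 60 in PS19 and 7 of 108 in CLEAR_PS19. The log2 fold change was -2.98 (SE 0.546, adjusted p = 0.0349, edgeR's quasi-likelihood test). Of the 4814 genes, 1 (Npas4, 0.0208%) was lower and 3 (Gm43049, Scaf1 and Gria4, 0.0623%) were higher in all 7 transgenic libraries without overlap.

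The values of Npas4 rest on 102 UMIs in 46 of the 293 nuclei, with 9.80% of them in 1 nucleus and 25.5% in 3. A Npas4 UMI was present in 15.7% of Vip nuclei, 6.66% of other inhibitory nuclei (median depth 11401 UMIs) and 0.610% of oligodendrocyte nuclei (2689 UMIs). The call held in 17 of 27 alternative settings and was lost in 6 of the 14 fits that left out 1 library, with adjusted p from 0.00334 to 0.0887 and log2 values from -3.22 to -2.47. Those 6 left out WT replicate 1, PS19 replicate 2, CLEAR replicate 2 or CLEAR_PS19 replicate 1, 2 or 3, at adjusted p of 0.0514 to 0.0887. Without the library set of CLEAR and CLEAR_PS19 males it was -1.98 (adjusted p = 0.625), and in the wide set, where 0.0563% of genes were called, -2.13 (adjusted p = 0.0105). In CLEAR_PS19 against CLEAR alone it was not called (-2.86), and with the pairs as a block it was (-3.04, adjusted p = 0.0433 by edgeR). In the other inhibitory nuclei, where 0.0477% of genes were called, the value of Npas4 was -0.35 (adjusted p = 1.0). On log2 CPM per library, another measure than the fit above, the effects in the 2 kinds of nuclei were -1.95 and -0.271. The difference between them was -1.68 (exact permutation p = 0.0143, adjusted 0.229 over 16 such tests, chosen after seeing the data). An effect particular to Vip nuclei was therefore not shown.

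Summed over all 22 activity-induced genes on the list, whatever their counts, libraries without the transgene ran from 508.1 CPM through a median of 602 to 1382, and those with it from 220.7 through 343.5 to 430.8. WT replicate 1 and CLEAR replicate 1 stood highest. The groups did not overlap in this sum. In the other inhibitory nuclei the same 22 genes summed to 197.7, 314 and 389.8 without and 178.2, 261.3 and 337.7 with the transgene (lowest, median and highest), and the groups overlapped. The 22 genes were listed with earlier results of these data known. The Vip nuclei of a library had a median of 7744 to 12569 UMIs in WT and 6825 to 13181 in CLEAR, and of 8899 to 10489 for PS19 and 5555 to 9220 for CLEAR_PS19, so their depth overlapped between libraries with and without the transgene. The 6 astrocyte markers summed to 385 to 755 CPM in the Vip nuclei of WT and 170 to 197 for PS19, without overlap, and to 50.5 to 368 for CLEAR and 208 to 304 for CLEAR_PS19, with overlap. Of the 6 markers, 1 had no UMI in PS19, 1 in CLEAR and 2 in CLEAR_PS19. The parts of depth and of astrocyte RNA in the activity sum were not tested.

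Of the 22 genes, 7 had enough counts in Vip nuclei for the genotype test. A gene could pass that filter through the libraries where it stood high, so the counts and the median of these 7 are a description and support no direction for the list. All 7 had negative fold changes with the transgene in both CLEAR genotypes, with a median log2 fold change of -1.47 beside -0.01 for all genes tested. Npas4 was the single call, and 6 of the 7 had an unadjusted p under 0.05, where 2.51% of all genes tested were lower and 2.08% higher at that level. In PS19 against WT 6 of the 7 were lower at that level (2.2% of all genes were lower and 2.04% higher), and in CLEAR_PS19 against CLEAR 5 of the 7 (2.24% and 2.04%). Egr1 stood at 169, 57.0 and 41.5 CPM in WT and 164, 95.3, 65.7 and 85.4 in CLEAR, against 45.0, 0 and 0 in PS19 and 49.5, 16, 38.1 and 17.2 in CLEAR_PS19 (-1.95, adjusted p = 0.0990 by edgeR). Its highest transgenic library, CLEAR_PS19 replicate 1, lay above the lowest WT library. Leaving out 1 library gave Egr1 values from -4.34 (without PS19 replicate 1) to -1.49 (without WT replicate 1). Of these 14 fits 2 called it. Nr4a1, a nuclear receptor, stood at 173, 47.5 and 41.5 in WT and 164, 130, 78.8 and 64.1 in CLEAR, against 41.2, 15.4 and 48.0 in PS19 and 45.7, 59.9, 46.9 and 51.5 in CLEAR_PS19 (-1.30, adjusted p = 0.248 by edgeR). WT replicates 2 and 3 lay within the transgenic range.

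The remaining values were -2.61 for Nr4a3, -1.47 for Junb, -0.97 for Fos and -0.87 for Homer1, which encodes a synaptic scaffold protein. The 15 listed genes that were too low to test summed to 105.4, 166.2 and 401.3 without and 115.1, 131.8 and 172.3 with the transgene (lowest, median and highest), and the groups overlapped. In the other inhibitory nuclei all 22 genes could be tested and 0 were called by edgeR. There 7 were lower and 1 was higher at an unadjusted p under 0.05, where 1.7% of all 14674 genes were lower and 2.35% higher. The median of the 22 was -0.39, beside 0.0026 for all genes. It was -0.38 in PS19 against WT and -0.56 in CLEAR_PS19 against CLEAR. Egr1 stood at -1.36 there (adjusted p = 0.0505 by edgeR).

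**Figure D3:**
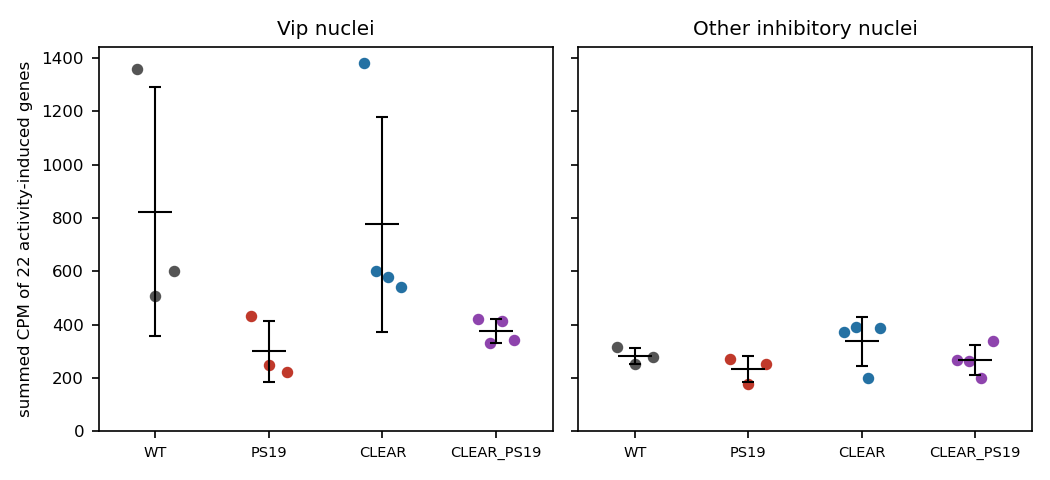
Points are libraries and give the summed CPM of the 22 listed activity-induced genes, with group means and SD bars. In Vip nuclei the 7 transgenic libraries reach at most 430.8 and the others start at 508.1; in other inhibitory nuclei the sums overlap, with medians of 314 without and 261.3 with the transgene.

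Gm43049 (chr3:140692038-140760704) marks libraries that carry the transgene. It had 54 UMIs in PS19 and 82 in CLEAR_PS19 and none in WT or CLEAR, at least 19.2-fold and 16.9-fold higher against a floor of 3 counts over the group. It was called in the wide set too (adjusted p = 1.203e-09 by edgeR). Prnp (chr2:131909928-131938429, overlapping Prn), whose promoter is printed above and drives the transgene, stood at 44.1, 33.2 and 34.6 CPM in WT and 68.4, 45.2, 39.4 and 57.0 in CLEAR, against 93.7, 154 and 48.0 in PS19 and 133, 120, 117 and 51.5 in CLEAR_PS19. Females of both transgenic groups (48.0 and 51.5) lay within the range of the other libraries. The log2 fold change was 1.26 (SE 0.245, adjusted p = 0.0492 by edgeR). This call was kept in 11 of 27 alternatives, with values from 0.858 to 1.39. It was lost on leaving out any 1 of 9 libraries (WT replicates 1 to 3, PS19 2, CLEAR 2 and 3, and CLEAR_PS19 1 to 3; adjusted p of 0.0561 to 0.254). Prnp was also called in the wide set (1.09, adjusted p = 0.0105) and in other inhibitory nuclei (1.13, adjusted p = 1.005e-06 by edgeR).

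Unc5c, a netrin receptor whose gene begins 0.705 Mb from the end of Gm43049, stood at 622, 613 and 852 CPM in WT and 164, 712, 578 and 434 in CLEAR, against 184, 349 and 182 in PS19 and 225, 264, 343 and 343 in CLEAR_PS19. WT libraries were all above those with the transgene, and CLEAR replicate 1 lay below them. The fold change of -1.14 on the log2 scale did not pass the threshold (adjusted p = 0.0550 by edgeR), and it did in the wide set and with the pairs as a block. In PS19 against WT alone it was -1.51 (adjusted p = 0.244) without and -1.53 (adjusted p = 0.0207) with that block, both by edgeR.

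In PS19 against WT, 2 genes were called (0.0415%), Gm43049 and Gpc5 (chr14:115092215-116525179), a heparan sulfate proteoglycan found mainly in astrocytes. Gpc5 stood at 530, 242 and 263 CPM in WT, 74.9, 51.4 and 19.2 for PS19, 0, 236, 138 and 78.3 for CLEAR, and 114, 75.9, 185 and 172 for CLEAR_PS19 (-2.72, SE 0.505, adjusted p = 0.0417 by edgeR). A single nucleus of WT replicate 1 held 109 of its 454 UMIs (24%), and 3 nuclei held 41.2%. Those 109 are most of the Gpc5 UMIs of WT replicate 1. Without the nuclei marked as doublets the change was -0.74 (adjusted p = 0.994), without WT replicate 1 -2.27 (adjusted p = 0.575), and in the wide set, where 0.0282% of genes were called, -1.22 (adjusted p = 0.9995). The call was lost also without WT replicate 3, any 1 PS19 library, CLEAR replicate 4 or CLEAR_PS19 replicate 1 (adjusted p of 0.0584 to 0.192). The 6 astrocyte markers whose sums are given above include Gpc5, and the part of astrocyte RNA in this call was not tested. With the pairs as a block 6 genes were called in PS19 against WT (0.111%): Gm43049, Gpc5 (-2.74, adjusted p = 0.00838 by edgeR), Unc5c, Cdh18, Gm3143 (3.26) and 1700016P03Rik (-2.29). In CLEAR_PS19 against CLEAR, Gm43049 was the single call (0.0208%), and with that block Npas4 and Chrm2 were called too (0.0556%). The next genes by p were E230029C05Rik (-2.39, adjusted p = 0.622), Npas4 (-2.86), Sav1 (2.25) and Sytl5 (-1.29).

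**Figure D4:**
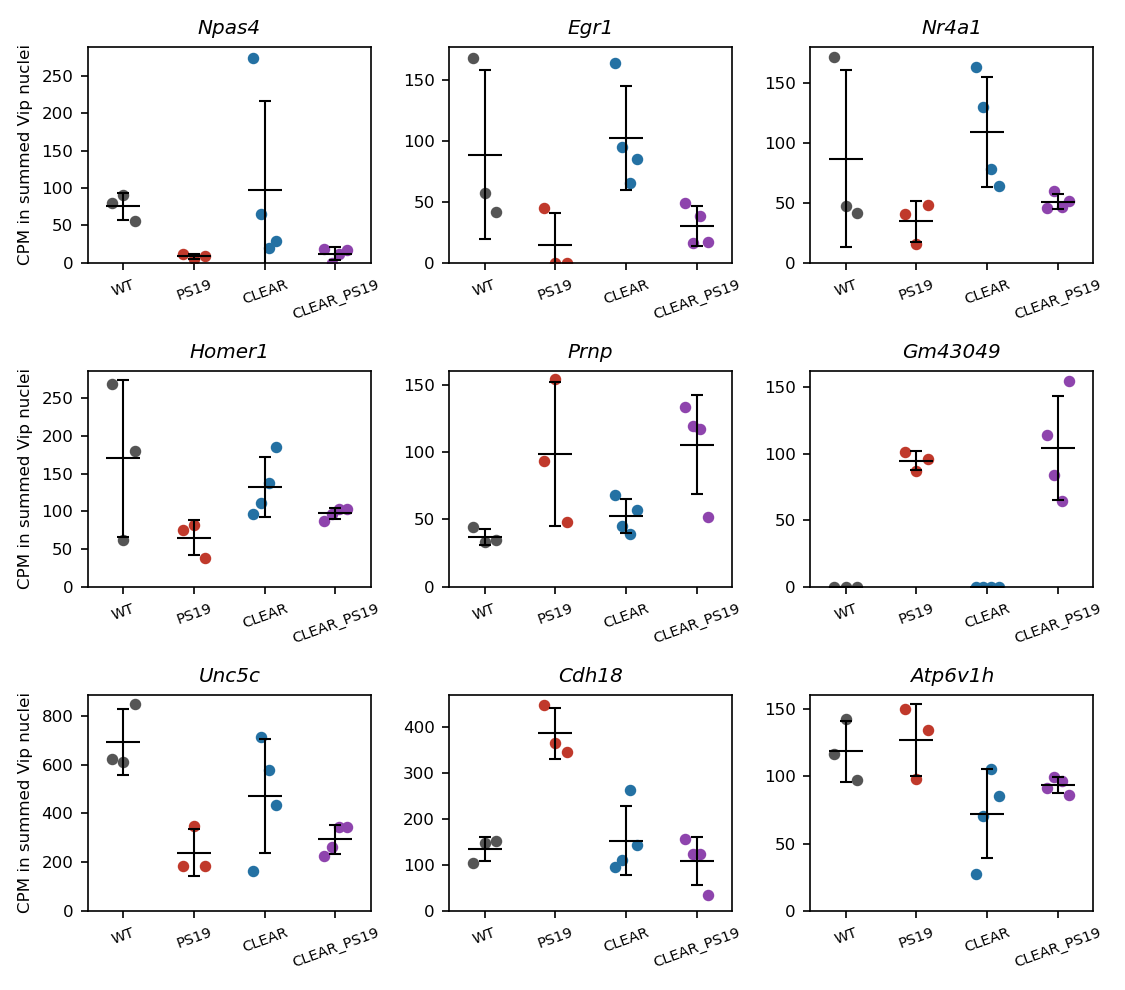
Panels give the CPM of 9 genes in summed Vip nuclei; points are libraries, horizontal bars group means and vertical bars SD (cut at 0 where they would pass below it). Npas4 and Gm43049 separate the libraries with and without the transgene, Npas4 by a gap smaller than the value of 1 UMI. Egr1, Prnp and Unc5c overlap between them. Cdh18 stands high in PS19 alone, where most of the value of replicate 1 comes from 1 nucleus.

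With sex as a covariate and the filter on low counts, no gene was called for the CLEAR mutation by edgeR or by DESeq2. This held in CLEAR against WT (0.0%), in the average over tau genotypes (0.0%) and for the interaction of mutation and transgene (0.0%). With 1 replicate block over all genotypes edgeR called 1 gene in CLEAR against WT and 10 in the average. Without the filter it called 8, 11 and, for the interaction, 10. At an unadjusted p under 0.05, 122 genes were higher (2.53%) and 106 lower (2.2%) in CLEAR against WT, 149 (3.1%) and 163 (3.39%) in the average, and 91 (1.89%) and 89 (1.85%) for the interaction, out of 4814. Atp6v1h (chr1:5070018-5162529, overlapping Rgs20), the gene that carries the mutated element, stood at 116, 142 and 96.9 CPM in WT and 150, 97.6 and 134 in PS19, against 27.4, 70.2, 105 and 85.4 in CLEAR and 91.4, 99.8, 96.7 and 85.9 in CLEAR_PS19. CLEAR replicate 1 was lowest, and CLEAR replicate 3 (105) and CLEAR_PS19 replicate 2 (99.8) lay above the lowest library without the mutation (96.9). The fold change was -0.54 on the log2 scale (SE 0.206, unadjusted p = 0.0159, adjusted p = 0.668 by edgeR). It was -0.38 (unadjusted p = 0.141) with the library set as a block and -0.36 (unadjusted p = 0.140) without the set of CLEAR and CLEAR_PS19 males. In the other inhibitory nuclei, which give many more UMIs, it was -0.68 (adjusted p = 1.2e-04), and 0.00681% of genes were called there. On log2 CPM per library the effects in the 2 kinds were -0.566 and -0.674, and the difference between the kinds was 0.108 (exact permutation p = 0.681, adjusted 0.908 over 16 tests). Over the 14 fits that left out 1 library it ran from 0.0213 to 0.275, and 1 of them passed the threshold. That fit, without CLEAR replicate 1, was the highest (exact permutation p = 0.00286, not adjusted for the 14 fits). Leaving out the set of CLEAR and CLEAR_PS19 males made it 0.301 (exact permutation p = 0.05, chosen after seeing the data).

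With the mutation 0.0% of all 4814 genes were called, so 0 calls in a list say little about its genes. No subunit of the V-ATPase was called. Of its 12 tested genes 9 were positive and 3 negative with the mutation, at a median of 0.21. Genes could pass the filter through the libraries where they stood high, so these values are a description and support no direction for the list. In the other inhibitory nuclei the median of 19 V-ATPase genes was 0.199, beside 0.0005 for all genes, so it was not particular to Vip nuclei. In Vip nuclei Atp6ap2, an accessory subunit that is also the prorenin receptor, had the smallest p of the 12 (0.83, adjusted p = 0.468 by edgeR). It stood at 0.68 with the library set as a block. Among 16 tested lysosome and autophagy genes, 0 were called and the median was 0.05. With the transgene Lamp1, a lysosomal membrane protein, was at 0.83 (adjusted p = 0.798 by edgeR). Genes of MHC class I and the interferon response were too low in Vip nuclei for any of 22 to be tested.

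In CLEAR_PS19 against PS19, 1 gene was called (0.0208%). Cdh18 (chr15:22549022-23474418), a cell adhesion molecule, stood at 450, 365 and 345 CPM in PS19 and 156, 124, 123 and 34.3 in CLEAR_PS19, without overlap (-1.71, SE 0.288, adjusted p = 0.0223 by edgeR). WT libraries held 104, 147 and 152 and CLEAR libraries 95.8, 110, 263 and 142, so PS19 stood apart from the other 3 genotypes, and the change in PS19 against WT was 1.55 (adjusted p = 0.0757 by edgeR, and 0.0242 with the pairs as a block). A single nucleus of PS19 replicate 1 held 83 of all 511 Cdh18 UMIs (16.2%), and 3 nuclei held 26.0%. Those 83 are most of the Cdh18 UMIs of PS19 replicate 1, so its 450 CPM rests mainly on 1 nucleus. How far PS19 stands apart without that nucleus was not tested. The share of Vip nuclei with a Cdh18 UMI was not highest in PS19. It was 48.3% there, 60.7% in WT, 42.2% in CLEAR and 36.1% in CLEAR_PS19. Without the nuclei marked as doublets the change was -1.14 (adjusted p = 0.456), with the library set as a block -1.53 (adjusted p = 0.693), and in the wide set -1.59 (adjusted p = 0.0121). Leaving out any 1 PS19 library or CLEAR_PS19 replicate 2, 3 or 4 also ended the call (adjusted p of 0.0624 to 0.173). The interaction was -1.93 (adjusted p = 0.873 by edgeR). The next genes were E230029C05Rik (-2.49), Apoe (-1.60), the convertase inhibitor Pcsk1n (1.51) and Klhl5 (1.84), each at an adjusted p of 0.362 by edgeR.

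Apoe, an apolipoprotein made mainly by glia, stood at 72.2, 66.5 and 55.4 CPM in WT and 93.7, 195 and 57.6 in PS19, against 13.7, 20.1, 39.4 and 28.5 in CLEAR and 57.1, 47.9, 35.2 and 0 in CLEAR_PS19. One of the 8 libraries with the mutation lay within the range of the 6 without it. The averaged change was -1.45 (adjusted p = 0.389 by edgeR), and -1.49 with the library set as a block. It was called in 1 of 26 alternative settings (adjusted p = 0.00352 by edgeR). Apoe, E230029C05Rik, Cdh18 and Pcsk1n were called in CLEAR_PS19 against PS19 in the wide set (0.0563% of genes). In the wide set without the set of CLEAR and CLEAR_PS19 males 0 genes were called in that contrast, and 2 with the library set as a block. The effect of the mutation on Apoe in Vip nuclei minus that in other inhibitory nuclei was -0.82 (log2, exact permutation p = 0.0433, adjusted 0.346).

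No gene that marks Vip cells was called between genotypes, where few genes of any kind were called. For the transgene, 0 of 11 tested identity genes were called, beside 0.0623% of all 4814 genes. At that share, 0 of 11 says little about these genes. Their median was -0.20. Prox1 had the smallest p (-0.34, adjusted p = 0.997 by edgeR). For the mutation 0 of 11 were called, beside 0.0% of all genes, with a median of 0.10. Tac2 (1.28, adjusted p = 0.451) and Cxcl14 (1.29, adjusted p = 0.468) came first by edgeR. Tac2 stood at 44.1, 28.5 and 41.5 CPM in WT, 30.0, 20.6 and 0 for PS19, 123, 105, 59.1 and 14.2 for CLEAR, and 91.4, 83.8, 58.6 and 34.3 for CLEAR_PS19. The highest 4 libraries were those of the set that holds CLEAR and CLEAR_PS19 alone, and the value of Tac2 was 0.78 with the library set as a block and 0.74 without that set, where Cxcl14 stood at 1.43 and 1.46. Vip itself, which chose the nuclei, stood at 774, 1026 and 685 CPM in WT, 584, 858 and 777 for PS19, 1710, 1089, 919 and 783 for CLEAR, and 1733, 1701, 1129 and 962 for CLEAR_PS19, and is given without a test.

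With the transgene 0.0623% of all 4814 genes were called, so 0 calls in a short list say little about its genes. Among genes of transmission, 0 of 23 tested GABA genes and 0 of 15 peptide genes were called with the transgene, with medians of -0.04 and 0.03. Of 14 receptors for modulatory input 0 were called. Chrm2 had the largest value of them (4.88, SE 1.57, adjusted p = 0.796 by edgeR), but 68.2% of its 214 UMIs came from 1 nucleus of CLEAR_PS19 replicate 1. With the pairs as a block it was called (4.72, adjusted p = 0.00173 by edgeR). The cytoskeleton list held 1 call in 12, Prnp, and the stress list 0 in 3.

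**Figure D5:**
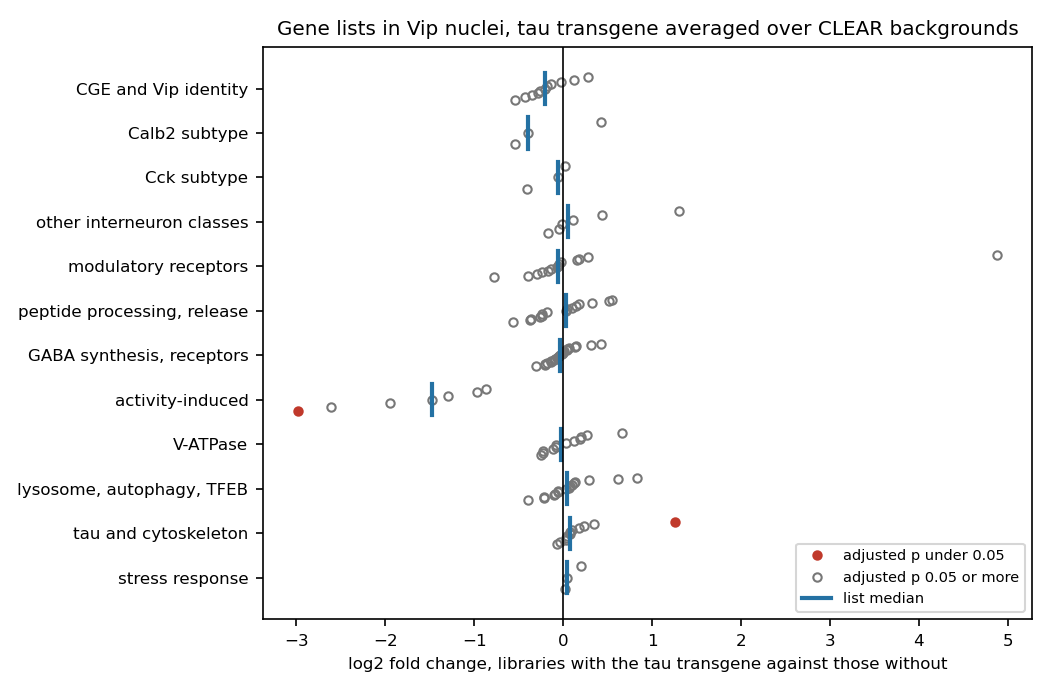
Each point is a tested gene of a fixed list in Vip nuclei, placed by its log2 fold change with the tau transgene; filled points have an adjusted p under 0.05 and bars are list medians. The 7 activity-induced genes drawn all lie below 0 around a median of -1.47, and the medians of the other lists drawn lie between -0.40 and 0.08. Genes could pass the filter on low counts through the libraries where they stood high. These medians are therefore a description and support no direction for a list. Marker lists of other cell types are not drawn; the 2 tested astrocyte markers had a median of -0.82.

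In bulk hippocampus Vip was measured without any choice of nuclei. At 9 months it stood at 14.4 ± 3.41 CPM in WT (n = 5) and 18.4 ± 4.25 in PS19 (n = 4), which gave a log2 value of 0.36 (SE 0.208, adjusted p = 0.295 by edgeR), and differed by 0.05 at 4 months. In bulk tissue, fewer cells of a type and less RNA per cell cannot be told apart. At 9 months 2060 of 16133 genes were called (12.8%), 1239 of them higher (7.68%) and 821 lower (5.09%). Of 18 identity genes, Vip included, 3 were called, all lower: Prox1, Synpr and Chat. Prox1 ranged from 108.4 to 129.6 CPM in WT and from 74.9 to 96.9 in PS19 (-0.51, adjusted p = 0.000298), and Synpr from 133.8 to 173.7 and from 109.5 to 125.4 (-0.37, adjusted p = 0.00330, both by edgeR), without overlap. As background, both genes are also expressed by granule or mossy neurons of the dentate gyrus, and the share of the bulk level that each cell type gave was not tested. Chat, the enzyme that makes acetylcholine, ranged from 0.0833 to 6.20 in WT and from 0 to 0.250 in PS19 (-4.54, adjusted p = 0.0264 by edgeR), and its call was lost without WT replicate 1 or any 1 of 3 PS19 libraries.

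In bulk at 9 months Calb2 was lower (log2 fold change -0.87, adjusted p = 0.00256), and so was Penk (-0.72, adjusted p = 0.0302), both by edgeR. In Vip nuclei neither was called, and the share of the bulk level that Vip cells gave was not tested. In simulated data the fit to Vip nuclei recovered 34.0% of genes changed 2-fold between PS19 and WT. At 4 months 3 of 16133 genes were called (0.0186%) and 0 of the 18 identity genes. The change at 9 months minus that at 4 months was called for 872 genes (5.41%), 705 higher (4.37%) and 167 lower (1.04%), and for 1 of the 18, Prox1 (-0.42, adjusted p = 0.0274 by edgeR). Npas4 in bulk at 9 months was called lower in PS19 (-2.89, adjusted p = 0.0382 by edgeR), where 12.8% of genes were called. It ranged from 15.6 to 519.6 CPM in WT, where 1 library stood far above a median of 17.6. In PS19 it ranged from 6.11 to 22.98 with a median of 17.4, so the medians were close. The value without that WT library is not given here.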

How the data were processed

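Nuclei were measured as 10x UMI counts per gene and barcode in 14 deposited matrices, whose headers name Cell Ranger 5.0.1 (per the file headers); mm10 and Seurat are named in the submitters' processing notes. Bulk libraries were deposited by the authors as read counts per gene; 1 file header names featureCounts 2.0.0, and totals ran from 9630430 to 17182605. The PS19 replicate 2 at 9 months was not used here.

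Counts of the chosen nuclei were summed per library and tested with edgeR 4.0.16 in R 4.3.3 (TMM scaling, filterByExpr, quasi-likelihood, Benjamini-Hochberg, threshold 0.05). Genotype fits held all 14 libraries with sex as a covariate. CPM use the TMM-scaled library sizes. DESeq2 1.42.0 was an alternative. The pipeline was tested on simulated data: 80.7% of genes changed 4-fold between PS19 and WT were recovered, and 34.0% at 2-fold. For the transgene averaged over CLEAR genotypes these shares were 98.7% and 67.3%. Shares were compared by exact permutation of libraries. Deviations from group means correlated between same-numbered libraries in all 7 pairs within a CLEAR genotype (0.103 to 0.207 in Vip sums, 0.581 to 0.817 in sums of all nuclei). The labels give these numbers without naming a shared litter or batch, and both libraries of a pair share sex and library set. Replicates 1 and 2 also give pairs of unequal number within a library set. CLEAR with CLEAR_PS19 gave 0.666 and 0.850 in sums of all nuclei, and -0.0188 and 0.0320 in Vip sums. WT with PS19 gave -0.0328 and 0.250 in sums of all nuclei, and -0.00879 and -0.0592 in Vip sums. What the number adds to sex and library set was not tested. Doublets were called but kept in the main results. How strand was counted is not given in the sources used here, so genes that overlap others are uncertain.

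The members, gene lists and tests were chosen with earlier results of these data known. Named genes were those called, the 5 of smallest p per contrast, and members of the lists. Between kinds of nuclei the 12 largest differences each way were taken among called genes at 20 or more mean CPM in the higher kind. Alternatives on the wide set and on the library sets were partly added after seeing the data. Coordinates are GRCm38 with GENCODE M21.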

Additional observations from a re-analysis of the deposited data

Results flagged for a closer look

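Of 73 groups of 4 to 6 libraries examined, 7 held 1 library far from the rest, where chance alone gives about 1 in 20. In CLEAR, replicate 2 stood apart in the share of Vip nuclei with Calb2 (38.1%), and replicate 3 in the share with Cck (61.5%). Sav1, a scaffold of Hippo signalling, was at 0.0 CPM in CLEAR replicate 1. Gm3143 was at 189 CPM in CLEAR_PS19 replicate 4. In bulk hippocampus at 4 months, 1 WT library stood high in Prox1 (132.6 CPM), 1 WT library in Chat (3.77 CPM) and 1 PS19 library in Vip (26.1 CPM).

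The effect of PS19 on bulk Prox1 differed between ages: the change at 9 months minus that at 4 months was -0.42 on the log2 scale (adjusted p = 0.0274 by edgeR, where 5.41% of genes were called).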

How the results depend on the processing

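Called genes by edgeR numbered 2 for PS19 against WT, 1 for CLEAR_PS19 against CLEAR, 0 for CLEAR against WT, 1 for CLEAR_PS19 against PS19, 3 for the transgene averaged, 0 for the mutation averaged and 0 for the interaction. Without a filter on low counts they were 23, 21, 8, 16, 28, 11 and 10, in that order. DESeq2 called 5 for the transgene. Without the sex covariate PS19 against WT gave 1 and the transgene 1. With a replicate block of pairs within the CLEAR genotype the counts were 6 for PS19 against WT, 3 for CLEAR_PS19 against CLEAR and 9 for the transgene, and no call given in the report beyond those printed there changed. Across CLEAR genotypes, libraries of the same number correlated unevenly in Vip sums. Replicates 1 and 2 gave 0.00178 to 0.117. Replicate 3, female in WT and PS19 and male in CLEAR and CLEAR_PS19, gave -0.145 to 0.0350. With 1 replicate block over all genotypes the counts were 5 for PS19 against WT, 1 for CLEAR against WT and 5 for CLEAR_PS19 against PS19. They were 7 for the transgene and 10 for the mutation. With the library set as a block CLEAR_PS19 against PS19 gave 0. Without the set of CLEAR and CLEAR_PS19 males the counts were 4 for PS19 against WT, 0 for CLEAR_PS19 against CLEAR, 0 for CLEAR_PS19 against PS19 and 1 for the transgene. With 3 or more Vip UMIs the transgene gave 1. Without doublet calls PS19 against WT gave 1 and CLEAR_PS19 against PS19 gave 0. In the wide set CLEAR_PS19 against PS19 gave 4, 0 without that library set, and 2 with the set as a block, where CLEAR_PS19 against CLEAR gave 5. Leaving out 1 library gave 1 to 4 for PS19 against WT, 1 to 2 for CLEAR_PS19 against CLEAR, 0 to 1 for CLEAR_PS19 against PS19, 1 to 9 for the transgene, 0 to 0 for the other contrasts, and 2214 to 2454 for Vip against other inhibitory nuclei. Against Sst nuclei, in 12 libraries, 926 of 3468 genes tested were called (26.7%, beside 22.9% in the main comparison). Bulk identity genes called at 9 months ranged from 2 (without WT replicate 1) to 5 (without PS19 replicate 1). The Atp6v1h difference between kinds ranged from 0.0213 to 0.275 on leaving out 1 library and was 0.301 without the set of CLEAR and CLEAR_PS19 males. Several differences in shares that had not passed a test changed sign, in percentage points. For Vip nuclei among barcodes, the mutation gave -0.0518 at 1 or more Vip UMI, -0.00476 at 2000 or more genes, -0.00779 in the wide set without that library set, and -0.0141 to 0.0244 on leaving out 1 library. Among inhibitory nuclei it gave -0.947 at 1 or more Vip UMI, -0.0055 at 2000 or more genes and -0.140 to 0.486 on leaving out 1 library, and the transgene gave -0.553 after thinning and -0.0205 to 0.606 on leaving out 1 library. At 2 or more UMIs the transgene gave -0.327 for Calb2 and -4.11 for Cck, and the mutation 0.225 for Calb2. For Cck the transgene gave -0.604 within library sets, -6.03 without that set and -1.37 to 5.94 on leaving out 1 library, where the mutation gave -3.46 to 3.87. Vip in bulk at 4 months ranged from -0.110 to 0.169 (log2) on leaving out 1 library. The cause of these changes was not tested. Library sums of 65556 to 384525 UMIs limit the genotype tests to genes of moderate level.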
